A study of Mus musculus with 7 samples.

Results

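Expression was examined for 9 genes of nerve growth and guidance signalling, Bdnf, Efna1, Efnb1, Efnb2, Epha2, Ephb4, Nrp1, Nrp2 and Plxnb2, of 57126 genes in the deposited table. The genes were taken by name and not by a cut on their values, but with earlier results of these data known. They were measured in tumor cells of the 4T1 line, a mouse triple-negative breast cancer line that grows in its BALB/c strain of origin. The cells carried mCherry, were grown in the mammary fat pad of BALB/c mice and were sorted on mCherry before RNA extraction. In the PBS group (n = 3 mice) the fat pad had received 100 µL of phosphate-buffered saline, and in the Botox group (n = 4 mice) it had received 0.3 units of Botox, a botulinum toxin preparation, in the same volume of saline. Both injections were given 7 days before the tumor cells, to compare tumor cells from saline-treated fat pads with those from chemically denervated ones. All 7 mice carried the same labelled tumor line in the same site, and the labels give each library a mouse of its own but no age.

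Neurotrophins are secreted proteins that support the survival and growth of nerve fibres through Trk receptors and p75NTR. Ephrins are ligands bound to the cell surface, held by a lipid anchor (ephrin-A) or a membrane-spanning segment (ephrin-B), and they signal to Eph receptor tyrosine kinases on neighbouring cells. Semaphorins steer growing axons through plexins, with neuropilins as co-receptors for the secreted class 3 semaphorins, and neuropilins also bind VEGF. The same families act in blood vessels and epithelia, and several of them are known in carcinomas.

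The deposited values were in TPM, transcript abundance per length scaled to a fixed total in each library. Low values were whole multiples of a step set by each gene's genomic span, introns included, so TPM times span gave estimated reads, 8.56 to 13.6 M a library. Libraries Botox 2 and Botox 4 stood apart. Of the genes detected in them, 4.08% and 3.63% had only 1 to 4 estimated reads. The share was 14.9% for Botox 3 and 21.2 to 24.5% for the other 4 libraries. Nuclear protein-coding genes held 3.71% of TPM in Botox 4 and up to 11.7% elsewhere, and the size factor (a library's median ratio to the typical library) was 0.454 in Botox 4, 0.907 to 1.15 in Botox 1 to 3, and 1.22 to 1.42 after PBS. A filter kept 11260 genes, those at 1 TPM or more in 3 or more libraries, and 93.8% of them had a lower mean after Botox, with a median log2 fold change of -0.46, which became -0.04 after division by the size factors. The differences of the 9 genes are given on both scales.

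None of the 9 genes passed the test for a difference between Botox and PBS. With limma on log2(TPM + 1) and Benjamini-Hochberg adjustment over the 11260 genes, 0 of the 8 genes that passed the filter were called, and the background was 0% called higher and 0% called lower. Before adjustment, 15 of all tested genes had p under 0.05 with a higher mean and 830 with a lower mean, none of them among the 9. Efnb1, Efnb2 and Nrp2 had the most negative values, -0.67, -0.70 and -0.58, which were 0.21, 0.24 and 0.12 below the all-gene median. Their values after size factors were -0.19, -0.17 and -0.08. Bdnf, Efna1, Epha2, Ephb4 and Plxnb2 lay 0.01 to 0.16 above that median. After size factors they took the values 0.00, 0.20, 0.18, 0.08 and 0.11, opposite in sign to the deposited scale for each of these 5 genes. In bulk RNA, fewer cells that express a gene and less of its RNA per cell cannot be told apart.

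**Figure D1:**
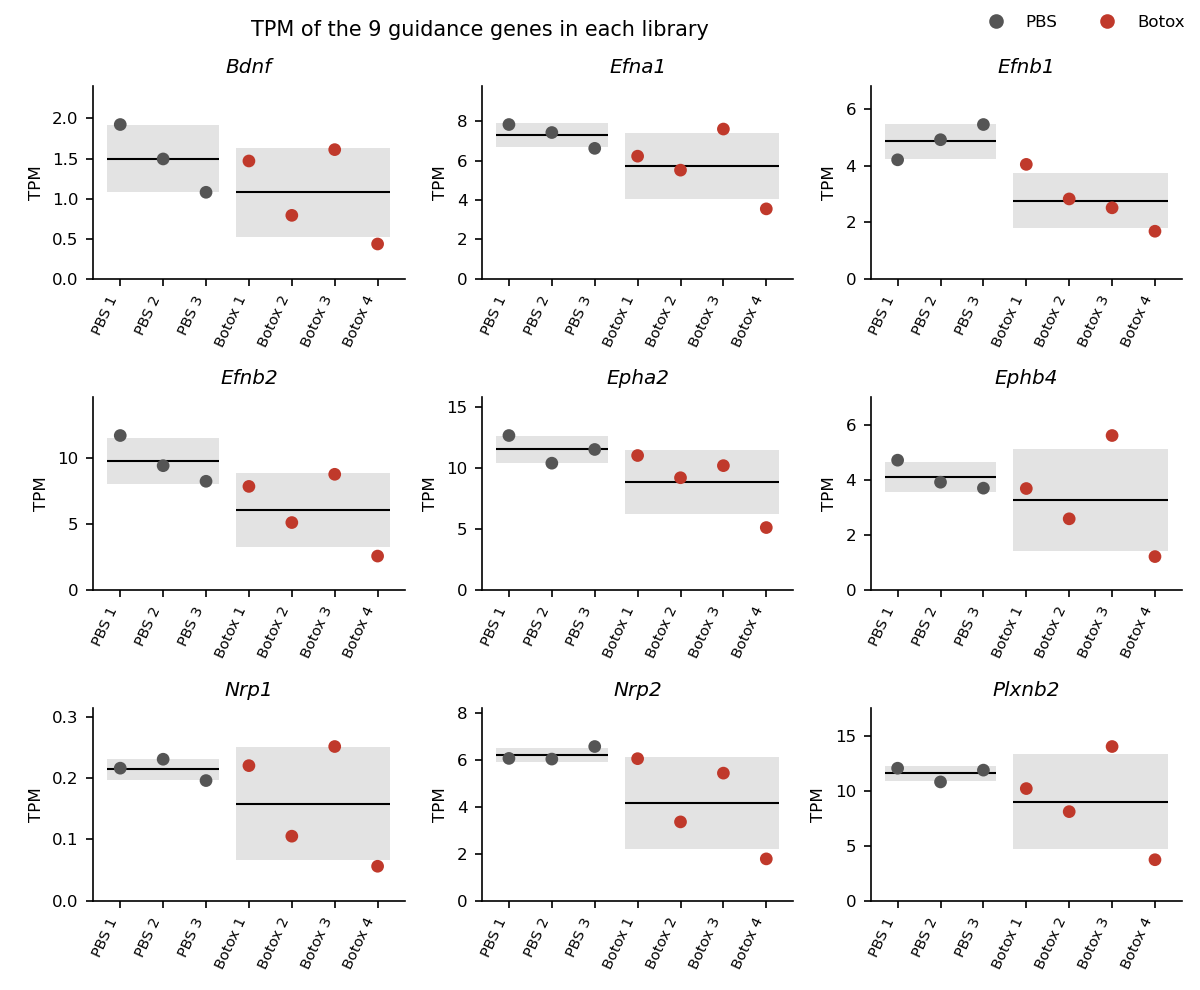
TPM as deposited (y axis, from 0) of each of the 9 genes in the 7 libraries (x axis). Points are single libraries, lines are group means and grey bands are ± 1 SD. Botox 4 is the lowest library for each gene, and Efnb1 is the only gene with every Botox library below every PBS library.

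Bdnf encodes brain-derived neurotrophic factor, the ligand of TrkB and, as its precursor, of p75NTR and sortilin (ENSMUSG00000048482, mm39 chr2:109505045-109557353, plus strand). It was present in every library, at 1.92, 1.49 and 1.08 TPM after PBS and at 1.47, 0.790, 1.61 and 0.432 TPM after Botox. Botox 1 and Botox 3 lay inside the PBS range, Botox 2 and Botox 4 below it, and the groups overlapped. The means were 1.50 ± 0.423 (SD, n = 3) and 1.08 ± 0.559 (SD, n = 4). On the log2 scale the difference was -0.30 ± 0.29 (SE), with a limma adjusted p of 0.493, and with size factors it was 0.00 ± 0.16, with a 95% interval of -0.38 to 0.39. The value rested on 232 to 608 estimated reads a library. Without Botox 4 the deposited value was -0.13, without PBS 1 it was -0.18, and without Botox 2 and Botox 4 it was 0.04. These log2 values use a pseudocount of 1, close to the level of Bdnf, which compresses the differences, their SE and the interval. With a pseudocount of 0.1 the deposited difference was -0.56 ± 0.55 (SE). With size factors and a pseudocount of 0.1, a choice made after seeing the data, it was 0.01 ± 0.28 (SE).

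Among its relatives, Ntf5, encoding neurotrophin-4, had 12 to 34 estimated reads a library, a count that also depends on gene length. Its mean TPM was 0.972 over all libraries, against 1.26 for Bdnf, and only in Botox 2 was it higher (1.18 against 0.790). Per kilobase of spliced transcript, Bdnf took 83.5 to 92.3% of neurotrophin reads and Ntf5 7.07 to 16.5%. Ntf5 passed the filter, with log2 differences of -0.02 as deposited (limma adjusted p = 0.961) and 0.23 with size factors. Ntf3 was listed at 0 in all libraries. Receptors for Bdnf were scarce in the sorted cells. Ntrk2 (TrkB) had at most 6 estimated reads, and Ngfr (p75NTR) at most 10, with 0 in Botox 2 and Botox 4. The related receptor gene Ntrk3 had at most 2. Sort1, encoding sortilin, reached 0.664 TPM in PBS 1 and was at or below 0.097 TPM in the other 6 libraries. These receptor genes did not pass the filter, so their group difference was not tested.

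Among the ligands held on the cell surface, Efna1 encodes ephrin-A1, a high-affinity ligand of EphA2 (ENSMUSG00000027954, mm39 chr3:89179040-89188450, minus strand). Its TPM was 7.84, 7.43 and 6.62 after PBS and 6.23, 5.52, 7.61 and 3.55 after Botox. Only Botox 3 reached the PBS range, so the groups overlapped through that library. The means were 7.30 ± 0.617 (SD, n = 3) and 5.72 ± 1.69 (SD, n = 4). As deposited, Botox differed from PBS by -0.34 ± 0.33 (SE, log2; limma adjusted p = 0.491), and the difference was 0.20 ± 0.14 (adjusted p = 0.930, 95% interval -0.13 to 0.52) with size factors. Without Botox 4 the deposited difference was -0.16. After scaling, Botox 4 held the highest Efna1 value of all libraries, 0.48 above the PBS mean on the log2 scale. Estimated reads ran from 343 to 544.

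Efnb1 encodes ephrin-B1, a ligand that can also signal backwards into the cell that carries it (ENSMUSG00000031217, mm39 chrX:98179736-98192598, plus strand). Its TPM was 4.21, 4.93 and 5.46 after PBS and 4.05, 2.83, 2.51 and 1.68 after Botox. All 4 Botox libraries were below all 3 PBS libraries. This order held for 1 of the 8 genes under study that were tested and for 22.4% of the 11260 tested genes, so it does not set Efnb1 apart from the background. The reverse order, all Botox libraries above all PBS libraries, held for 0.151% of genes and for none of the 9. The means were 4.87 ± 0.628 (SD, n = 3) and 2.77 ± 0.983 (SD, n = 4), the Botox mean being 56.8% of the PBS mean. The log2 fold change of -0.67 ± 0.31 (SE) had an unadjusted p of 0.0527 and a limma adjusted p of 0.424.

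With size factors the Efnb1 groups overlapped, and the log2 fold change was -0.19 ± 0.19 (SE), with a 95% interval of -0.64 to 0.27. The lowest scaled value was in Botox 3, 0.79 below the PBS mean on the log2 scale, from 194 estimated reads. The other Botox libraries lay between -0.27 and 0.01. Without Botox 2 and Botox 4, the deposited scale gave -0.47 (limma adjusted p = 0.487).

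Efnb2 encodes ephrin-B2, the ligand of EphB4 known from arterial endothelium and from axon guidance (ENSMUSG00000001300, mm39 chr8:8667434-8711243, minus strand). Its TPM was 11.7, 9.42 and 8.23 after PBS and 7.84, 5.09, 8.76 and 2.55 after Botox. Botox 3 lay inside the PBS range and the other Botox libraries below it. The means were 9.78 ± 1.77 (SD, n = 3) and 6.06 ± 2.81 (SD, n = 4). This gave a log2 difference of -0.70 ± 0.40 (SE; limma adjusted p = 0.424), and -0.17 ± 0.16 (adjusted p = 0.930, 95% interval -0.55 to 0.21) with size factors. Without Botox 4 the deposited value was -0.41, and without Botox 2 and Botox 4 it was -0.20. The annotation also holds 3 unclassified gene models inside Efnb2 on the same strand, with at most 575 estimated reads each, so reads of this locus could have been split between models.

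Of the receptors, Epha2 encodes EphA2, the main ephrin-A receptor of many epithelial tumors (ENSMUSG00000006445, mm39 chr4:141028551-141056696, plus strand). Its TPM was 12.7, 10.4 and 11.5 after PBS and 11.0, 9.21, 10.2 and 5.11 after Botox. Botox 1 lay inside the PBS range and the other Botox libraries below it. The means were 11.5 ± 1.14 (SD, n = 3) and 8.89 ± 2.63 (SD, n = 4), and their log2 difference was -0.39 ± 0.36 (SE), for which limma gave an adjusted p of 0.475. Scaling by size factors brought the PBS libraries together, at 8.95, 8.56 and 8.96 scaled TPM (coefficient of variation 2.59%). The Botox libraries were at 10.3, 10.2, 8.84 and 11.2 scaled TPM. Botox 1, Botox 2 and Botox 4 were then above every PBS library and Botox 3 was within them, and the log2 fold change was 0.18 ± 0.12 (SE; adjusted p = 0.930, 95% interval -0.11 to 0.47). The deposited difference was -0.17 without Botox 4.

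Ephb4 encodes EphB4, the receptor of ephrin-B2 and a venous counterpart to it in vessels (ENSMUSG00000029710, mm39 chr5:137348371-137376932, plus strand). Its TPM was 4.73, 3.92 and 3.71 after PBS and 3.69, 2.59, 5.63 and 1.21 after Botox. The highest and the lowest library were both in the Botox group. The means were 4.12 ± 0.539 (SD, n = 3) and 3.28 ± 1.87 (SD, n = 4). EphB4 transcript differed by -0.36 ± 0.38 (SE, log2; limma adjusted p = 0.509) as deposited and by 0.08 ± 0.19 (adjusted p = 0.966, 95% interval -0.36 to 0.53) with size factors. Leaving out Botox 4 gave -0.08 as deposited, and leaving out Botox 3 gave -0.61. Botox 3 stayed the highest after scaling, 0.63 above the PBS mean on the log2 scale. Estimated reads ran from 354 to 966.

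The promoters of this ligand and receptor pair, and that of Epha2, are printed because they show the sequence context of the genes whose ratios are compared below. Each is the 250 bases before the annotated start, 5′ to 3′ on the gene's strand, from RefSeq with GRCm38.p6 coordinates, which are not those of the deposited table. They lie at chr8:8661243-8661492 (Efnb2, minus strand), chr5:137349859-137350108 (Ephb4, plus strand) and chr4:141300971-141301220 (Epha2, plus strand). Capitals mark matches, on either strand, to the GC box GGGCGG, the CCAAT box, TATAAA and the cAMP response element TGACGTCA.
Efnb2: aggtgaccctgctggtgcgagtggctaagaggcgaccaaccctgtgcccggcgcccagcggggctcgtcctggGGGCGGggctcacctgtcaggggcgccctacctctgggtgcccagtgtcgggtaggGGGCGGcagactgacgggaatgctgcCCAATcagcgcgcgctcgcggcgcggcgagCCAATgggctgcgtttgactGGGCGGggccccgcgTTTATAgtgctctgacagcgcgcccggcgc
Ephb4: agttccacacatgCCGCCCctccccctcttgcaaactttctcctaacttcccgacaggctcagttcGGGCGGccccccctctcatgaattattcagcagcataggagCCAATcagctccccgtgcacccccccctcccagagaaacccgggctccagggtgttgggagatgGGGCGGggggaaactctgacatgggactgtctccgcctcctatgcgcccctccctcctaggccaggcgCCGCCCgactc
Epha2: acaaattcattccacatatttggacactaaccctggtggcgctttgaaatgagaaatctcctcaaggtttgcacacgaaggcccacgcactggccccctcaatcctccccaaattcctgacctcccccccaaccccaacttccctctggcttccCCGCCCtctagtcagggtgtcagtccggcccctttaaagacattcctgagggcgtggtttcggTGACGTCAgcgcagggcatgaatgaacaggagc

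The Efnb2 window was 72.0% G and C, with 3 GC boxes, 2 CCAAT boxes and a TATAAA match that begins 30 bases before the start. That of Ephb4 was 64.0% G and C, with 4 GC boxes and 1 CCAAT box. That of Epha2 was 55.6% G and C, with 1 GC box and the response element 33 bases before the start. Over the 17 RefSeq promoters of the 9 genes, 11 held a GC box, 3 a CCAAT box, 1 TATAAA, 1 TGACGTCA and 0 the E-box CACGTG. Among 32851 promoter windows of the same length the shares were 32.7%, 33.8%, 12.4%, 1.55% and 6.02%. Overlapping matches between different motifs were counted for each, and a match describes letters, not a bound site.

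Nrp1 and Nrp2 encode the 2 neuropilins, co-receptors for class 3 semaphorins and for VEGF. Nrp2 (ENSMUSG00000025969, mm39 chr1:62742444-62857855, plus strand) was at 6.08, 6.05 and 6.58 TPM after PBS and at 6.06, 3.36, 5.45 and 1.78 TPM after Botox. Botox 1 lay inside the narrow PBS range and the other Botox libraries below it. The means were 6.24 ± 0.302 (SD, n = 3) and 4.16 ± 1.96 (SD, n = 4). For Nrp2 the log2 fold change was -0.58 ± 0.37 (SE; limma adjusted p = 0.424) and became -0.08 ± 0.16 (adjusted p = 0.958, 95% interval -0.46 to 0.30) with size factors. Without Botox 4 the deposited value was -0.31, and without Botox 2 and Botox 4 it was -0.10. With 2114 to 6212 estimated reads a library, Nrp2 had the most reads of the 9 genes in each library. An unclassified gene model on the same strand inside Nrp2 had at most 79.

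Nrp1 (ENSMUSG00000025810, mm39 chr8:129085085-129229845, plus strand) was the weakest of the 9 genes and the only one under the filter. Its TPM was 0.216, 0.231 and 0.196 after PBS and 0.220, 0.105, 0.252 and 0.0561 after Botox. Botox 3 was above the PBS range, Botox 1 inside it, and Botox 2 and Botox 4 below it. The means were 0.214 ± 0.0175 (SD, n = 3) and 0.158 ± 0.0928 (SD, n = 4), from 82 to 259 estimated reads. The limma fit without a filter gave a log2 fold change of -0.07 ± 0.07 (SE, adjusted p = 0.580), a scale on which a pseudocount of 1 compresses values this low. With size factors and a pseudocount of 0.1, a choice made after seeing the data, it was -0.01 ± 0.27. The unfiltered deposited value was -0.028 without Botox 4 and -0.11 without Botox 3. Nrp2 took 92.9% ± 0.8 (SD, n = 3) of neuropilin reads per spliced kilobase in the PBS group and 92.6% ± 1.3 (SD, n = 4) in the Botox group.

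Plxnb2 encodes plexin-B2, a receptor for class 4 semaphorins (ENSMUSG00000036606, mm39 chr15:89039752-89064992, minus strand). Its TPM was 12.1, 10.8 and 11.9 after PBS and 10.2, 8.13, 14.1 and 3.74 after Botox. The Botox values spread to both sides of the PBS range, with Botox 3 above and the other Botox libraries below. The means were 11.6 ± 0.679 (SD, n = 3) and 9.05 ± 4.31 (SD, n = 4). For Plxnb2 the log2 fold change was -0.45 ± 0.42 (SE; limma adjusted p = 0.478) and became 0.11 ± 0.15 (adjusted p = 0.948, 95% interval -0.26 to 0.47) with size factors. Leaving out Botox 4 gave -0.12 as deposited, and leaving out Botox 3 gave -0.68. Estimated reads ran from 969 to 2461.

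**Figure D2:**
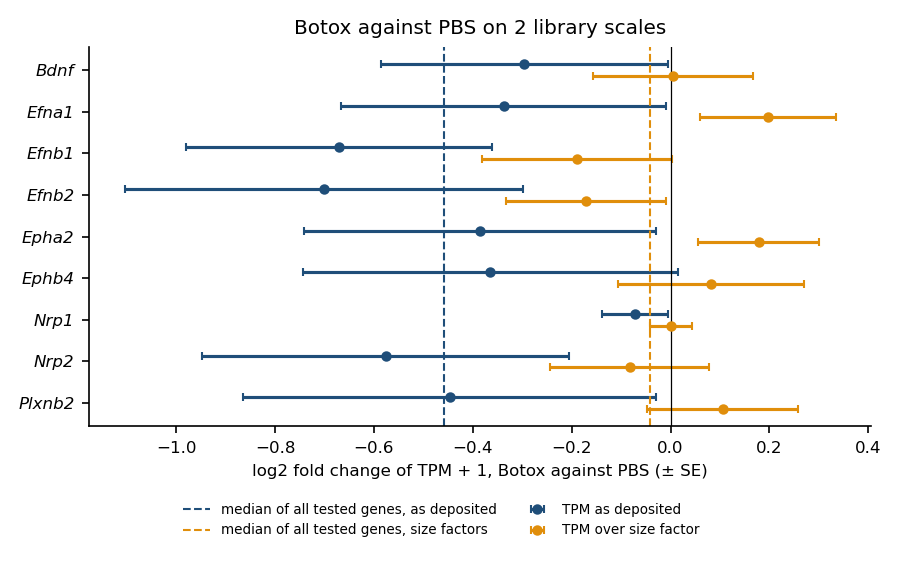
Log2 fold change of TPM + 1, Botox (n = 4) against PBS (n = 3), on the x axis for each gene, with bars of 1 SE. Blue is TPM as deposited and orange is TPM over size factor, and dashed lines are the medians of all tested genes, -0.46 and -0.04. Deposited values lie left of 0 for all 9 genes, and after size factors Efnb1, Efnb2 and Nrp2 stay left of 0 while Efna1, Epha2, Ephb4 and Plxnb2 lie right of it.

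The 9 genes differed in how much they varied between animals after size factors. The PBS coefficient of variation ran from 2.59% for Epha2 and 4.06% for Plxnb2 to 18.2% for Efnb1 and 23.8% for Bdnf. In the Botox group it ran from 9.74% for Epha2 to 32.3% for Nrp1, and it was 29.0% for Ephb4. Botox 3 combined the lowest Efnb1 of all libraries with the highest Ephb4, Plxnb2 and Nrp1, at 0.63, 0.45 and 0.40 above the PBS mean on the log2 scale. Botox 2 and Botox 4 shared low Efnb2, at -0.41 each, low Nrp1, at -0.51 and -0.42, and low Nrp2, at -0.37 and -0.29. Both were also the libraries with few genes of 1 to 4 reads, and the part of that property in these values was not tested.

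**Figure D3:**
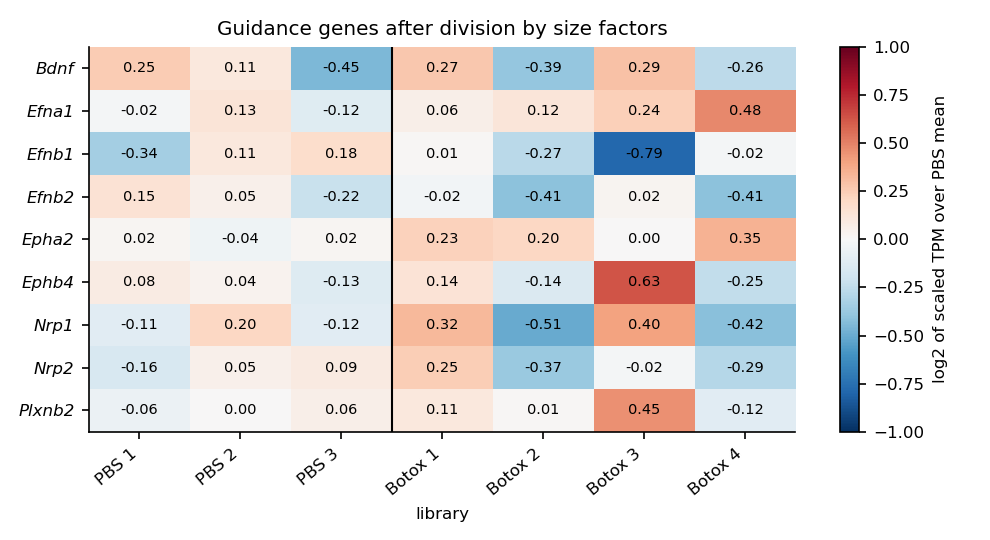
Each cell is the log2 of TPM over size factor relative to the PBS mean, for the 9 genes (rows) in the 7 libraries (columns), with red above and blue below the PBS mean. Efnb1 in Botox 3 is the lowest cell (-0.79) and Ephb4 in Botox 3 the highest (0.63).

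To rank the genes by level, estimated reads were expressed as RPKM (reads per kilobase, scaled to the library's total reads) over the spliced length of the transcript with the longest coding sequence, since the deposited TPM divides by genomic span, introns included. How the counting treated intronic reads is not given in the sources used here, so these levels are approximate. The order was Nrp2 (mean 62.2 RPKM over 7 libraries), Epha2 (50.1), Efnb2 (47.1), Efna1 (28.4), Plxnb2 (27.0), Ephb4 (16.5), Bdnf (11.4), Efnb1 (9.90) and Nrp1 (4.94). No neighbours in this order had separate ranges over the libraries: Nrp2 spanned 37.4 to 77.5, Epha2 42.5 to 55.9 and Efnb2 26.9 to 60.0. Efnb2 was above Epha2 in the PBS means (53.2 and 49.4 RPKM) and below it in the Botox means (42.6 and 50.6 RPKM). Among 21475 protein-coding genes Nrp2 stood between percentiles 96.7 and 98.2, Bdnf between 74.8 and 83.6, and Nrp1 between 61.1 and 70.6. By TPM as deposited the order opened instead with Plxnb2, Epha2 and Efnb2, and Nrp2 was the fifth.

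**Figure D4:**
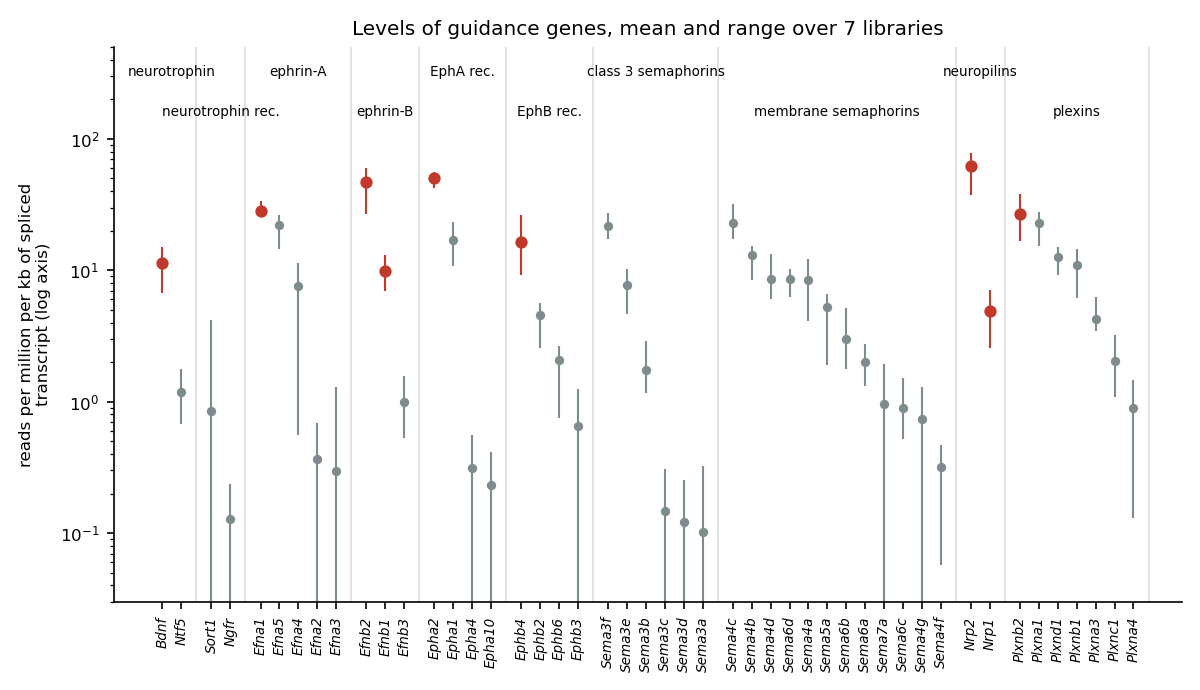
RPKM over spliced transcript length (log axis) for genes of the guidance families with a mean above 0.1, on the x axis, the 9 genes in red. Points are means over 7 libraries and lines run from the lowest to the highest library, with lines that reach the bottom edge for genes at or near 0 in a library. Among the genes plotted, Bdnf, Efna1, Efnb2, Epha2, Ephb4, Nrp2 and Plxnb2 have the highest means of their groups.

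Each family was led by 1 or 2 genes. Efnb2 took 80.7% ± 3.9 (SD, n = 3) of ephrin-B reads per spliced kilobase in the PBS group and 80.7% ± 5.1 (SD, n = 4) in the Botox group, and Efnb1 most of the rest. Epha2 took 74.8% ± 2.5 (SD, n = 3) and 73.8% ± 5.0 (SD, n = 4) of EphA reads, with Epha1 next at 24.1% and 25.5%. Ephb4 took 68.0% ± 1.0 (SD, n = 3) and 70.4% ± 3.7 (SD, n = 4) of EphB reads, followed by Ephb2. Ephrin-A was shared between Efna1, at 44.7% ± 2.6 (SD, n = 3) in the PBS group and 52.3% ± 6.7 (SD, n = 4) in the Botox group, and Efna5, at 40.5% ± 2.3 and 35.2% ± 2.6. Plxnb2 took 33.7% ± 1.2 (SD, n = 3) and 32.7% ± 3.8 (SD, n = 4) of plexin reads, ahead of Plxna1 at 29.7% and 27.0%. The genes in second place depend on the length in the divisor. By deposited mean TPM over all libraries, Efna4 (3.99) followed Efna1 (6.40), with Efna5 at 0.475. Likewise, Ephb6 (0.778) followed Ephb4 (3.64), with Ephb2 at 0.172. These shares are descriptions and were not tested between groups.

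Ratios between 2 genes of 1 library do not depend on that library's scale, except through an added constant where a gene is low. For this reason 5 pairs were compared as log2 of TPM plus 0.01. Efnb2 to Ephb4 was 1.31, 1.26 and 1.15 after PBS and 1.08, 0.98, 0.64 and 1.07 after Botox, so the highest Botox value was under the lowest PBS value. The means were 1.24 ± 0.081 (SD, n = 3) and 0.942 ± 0.209 (SD, n = 4), a difference of -0.30. In the exact two-sided permutation test over 35 arrangements p was 0.057, the smallest this design allows, and it was 0.286 after adjustment over the 5 ratios. The difference stayed between -0.34 and -0.19 when each library was left out in turn, and was smallest without Botox 3. Without Botox 2 and Botox 4 it was -0.38. The part of reads split between gene models at the Efnb2 locus in this ratio was not tested.

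For the other 4 ratios the groups overlapped. Efnb1 to Ephb4 had a difference of -0.35 (exact permutation p = 0.629) that rested on Botox 3, at -1.16, and was 0.00 without it. Efna1 to Epha2, a ligand and its receptor, differed by 0.03 (exact permutation p = 0.914), with -0.660 ± 0.160 (SD, n = 3) for PBS and -0.628 ± 0.186 (SD, n = 4) for Botox. Nrp1 to Nrp2 differed by 0.11 (exact permutation p = 0.571) and Efnb1 to Efnb2 by -0.05 (exact permutation p = 0.857). Leaving out Botox 3 turned the last of these to 0.20, and without it Nrp1 to Nrp2 was 0.01. With 0.1 added in place of 0.01, Nrp1 to Nrp2 differed by 0.35 (exact permutation p = 0.114), and Efnb2 to Ephb4 stayed at -0.30. With 0.01 added, the adjusted p of each of these 4 ratios was 0.914.

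**Figure D5:**
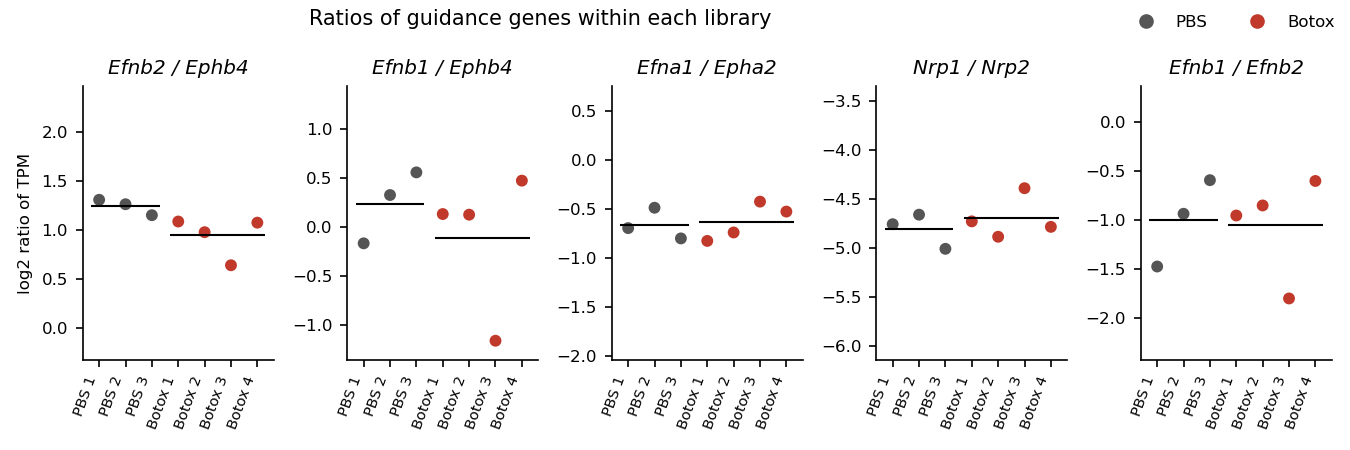
Log2 ratio of TPM (y axis) for 5 pairs of guidance genes in the 7 libraries (x axis), with group means as horizontal lines. Efnb2 to Ephb4 lies between 1.15 and 1.31 after PBS and between 0.64 and 1.08 after Botox, and the other pairs overlap.

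The other genes of these pathways were read from 15 lists that hold 118 genes with the 9. Of the 118, 39 passed the filter, 0 were called in either direction, and all 39 had a negative log2 fold change as deposited, with a median of -0.35 against -0.46 for all tested genes. With size factors the median was 0.08 against -0.04, and 13 of the 39 were negative, against 56.7% of all tested genes. Genes listed at 0 in all libraries included Ntf3, Plg, Epha6, Ephb1 and Dcc. Without the 9 genes, 31 tested genes had a median of -0.33 as deposited and 0.09 with size factors, and the 8 tested genes of the 9 had -0.42 and 0.04.

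Among partners of the 9 genes, Furin, a protease that cleaves proneurotrophins, had a mean TPM of 18.1 ± 5.63 (SD, n = 3) in the PBS group, against 12.2 ± 1.13 (SD, n = 4) in the Botox group. For Furin every Botox library was below every PBS library as deposited. This order held for 6 of the 39 tested list genes and for 22.4% of the 11260 tested genes. With size factors the Furin groups overlapped and the log2 difference was 0.09. Mmp9, a secreted protease that can also process proneurotrophins, was at 10.7 ± 3.46 and 6.05 ± 2.90 TPM (limma adjusted p = 0.424), and its log2 difference was -0.77 as deposited and -0.22 with size factors. Artn, encoding the GDNF family ligand artemin, was at 4.38 ± 0.507 and 3.75 ± 1.98 TPM, with log2 differences of -0.27 as deposited and 0.21 with size factors. No other gene of the GDNF family list passed the filter.

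Of the ligands for the semaphorin receptors, Sema4c, a plexin-B2 ligand, had a mean TPM of 13.1 ± 0.882 (SD, n = 3) in the PBS group, against 12.7 ± 3.87 (SD, n = 4) in the Botox group. With size factors all 4 Botox libraries were above all 3 PBS libraries for Sema4c (0.51 on the log2 scale) and Plxna3 (0.32), an order that held for 3.98% of tested genes. The reverse order held for 3.78% and, among the 39 list genes that passed the filter, for Dpysl2 and Adam10. Sema3f, a secreted ligand of neuropilin-2, was at 3.06 ± 0.828 and 2.28 ± 0.898 TPM, with log2 differences of -0.33 as deposited and 0.10 with size factors. Vegfa, encoding the VEGF that binds neuropilin-1, was at 18.8 ± 6.70 and 12.3 ± 4.21 TPM, with a log2 fold change of -0.58 as deposited and 0.01 with size factors.

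Of the effectors, Sdcbp (syntenin, an adaptor that binds ephrin-B tails) and Adam10 (a protease that sheds ephrins) had the lowest unadjusted p of the 39 list genes tested, 0.0294 and 0.0458. Their log2 fold changes were -0.84 ± 0.34 and -0.65 ± 0.29 (SE), both with a limma adjusted p of 0.424, and -0.29 and -0.28 with size factors. Dpysl2, the semaphorin effector CRMP2, had a mean TPM of 6.45 ± 0.274 (SD, n = 3) in the PBS group, against 3.64 ± 1.54 (SD, n = 4) in the Botox group. The difference was -0.75 ± 0.35 (SE, log2; limma adjusted p = 0.424) as deposited and -0.26 with size factors. Plxna3, Adam10, Ntrk3, Plg, Epha6, Ephb1 and Dcc were named after their values were seen.

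A list of 6 genes taken as markers of the tumor line summed to 716 to 787 TPM after PBS and 212 to 746 after Botox (555 to 609 and 433 to 646 with size factors). Most of the sum was Vim, with means of 514 and 345 TPM. Over all libraries Krt18 was at 40.6 to 167 TPM and Krt8 at 27.8 to 76.5. Krt19 was at 2.73 to 5.07 TPM, Epcam at 1.48 to 3.16 and Cdh1 at 1.08 to 3.27. The share of tumor cells in each library was not tested. A list of 10 macrophage markers, led by Lyz2, summed to 855 to 1322 and 235 to 1096 TPM (703 to 1026 and 220.4 to 1209 with size factors), and 10 of its 10 genes were above 0 in all libraries. Efnb2, Ephb4 and both neuropilins are also expressed by vessels. Of 10 endothelial markers 3 were above 0 in all libraries. The 10 summed to 1.54 to 2.11 TPM after PBS and 0.510 to 1.20 after Botox. All Botox sums were below all PBS sums, an order that 22.4% of the 11260 tested genes also had as deposited. With size factors the endothelial sums overlapped, at 1.09 to 1.71 and 0.442 to 1.85. The largest of them, Cldn5, had at most 11 estimated reads and was at 0 in Botox 2, Botox 3 and Botox 4, Emcn had at most 2 reads, and Pecam1 at most 496. The part of macrophages and of vessel cells in the values of the 9 genes was not tested.

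For nerve tissue, 10 Schwann cell and neuron markers summed to 1.68 to 2.195 TPM after PBS and 0.521 to 1.67 after Botox, and the neuronal genes Nefl and Uchl1 were at 0 in all libraries. Fibroblast markers summed to 5.54 to 8.28 and 3.07 to 4.17 TPM, and pericyte markers to 0.468 to 0.789 and 0.296 to 0.605 TPM. As for the endothelial list, all nerve and fibroblast sums after Botox were below those after PBS, and the pericyte sums overlapped. With size factors the nerve sums were 1.38 to 1.55 and 1.15 to 1.56, the fibroblast sums 3.96 to 6.43 and 2.66 to 8.61, and the pericyte sums 0.330 to 0.648 and 0.326 to 0.943. Their part in the levels of the 9 genes was not tested.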

How the data were processed

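Per the labels' protocols, RNA was depleted of ribosomal RNA, made into stranded libraries and sequenced as paired 150 bp reads. The submitters' processing notes name mm39, Bowtie2 2.2.5, SAMtools and DESeq2, and how reads were counted is not given in the sources used here. Values as deposited are TPM with 0.001 added to each, as the low values show, and each library sums to 1000060. Estimated reads were TPM times genomic span over a step found in each library, and 89.3 to 90.7% of values under 20 reads were whole within 0.1. Groups and replicate numbers came from the sample titles. The treatment label reads 'Not treated' in all 7 samples, so it does not separate the groups. The library names, Control and Botox, match the titles.

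Tests used limma 3.58.1 in R 4.3.3 on log2(TPM + 1) of the deposited values, with an intensity trend, for genes of at least 1 TPM in at least 3 libraries, two-sided, with Benjamini-Hochberg adjustment at 0.05. Size factors were medians of ratios over the 14051 genes above 0 in all libraries. Ratios used exact permutation over 35 arrangements. Levels used spliced lengths of the GENCODE M21 annotation, for lengths only. The fit was also run on simulated data without differences in library scale, so that run does not cover the scale differences seen here. The genes and lists were chosen with earlier results of these data known, and the other genes named are the 3 with the highest mean TPM in each list, of which those with most bearing on the 9 are given, apart from 7 genes stated in the text as named after their values were seen. Replicate numbers were not used as pairs in the main fit. After each group's mean was subtracted, same-numbered libraries correlated at 0.096, -0.029 and -0.186. Different-numbered libraries correlated at -0.146 to 0.164. With so few libraries, these values cannot decide whether the numbers pair the samples. Alternatives were pseudocount, filter, scaling, array weights, trend, left-out libraries and a replicate block. Python 3.11.15, pandas 2.3.3 and matplotlib 3.10.9 were used for values and figures. The deposited table of gene sets was not used here. Some genes of the lists are not reported here.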

Additional observations from a re-analysis of the deposited data

How the results depend on the processing

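No gene of the 9 passed the threshold under any alternative run, with limma adjusted p from 0.270 to 1.00 over 161 alternative fits of single genes, of which 135 kept the direction and 26 reversed it. Efnb1, Efnb2 and Nrp2 stayed negative under all 18 alternatives (-0.85 to -0.19, -0.89 to -0.17 and -0.76 to -0.08). Size factors turned Bdnf to 0.0041, Efna1 to 0.20, Epha2 to 0.18, Ephb4 to 0.082, Nrp1 to 0.00041 and Plxnb2 to 0.11. Quantile normalization gave 0.17, 0.11, 0.090, 0.059, 0.15 and 0.0042 for the same genes. Rescaling to protein-coding genes gave 0.0011 for Bdnf, 0.20 for Efna1, 0.18 for Epha2, 0.080 for Ephb4 and 0.11 for Plxnb2. Without Botox 2 and Botox 4, Bdnf was 0.037, Ephb4 0.13, Nrp1 0.025 and Plxnb2 0.046. Size factors with a pseudocount of 0.1, added after seeing the data, gave 0.0067 for Bdnf, 0.22 for Efna1, 0.19 for Epha2, 0.10 for Ephb4 and 0.11 for Plxnb2. The median of the 39 tested list genes became 0.082 with size factors, 0.10 with quantile normalization, 0.091 with protein-coding rescaling and 0.10 with the added setting, and ran from -0.47 to -0.17 with 1 library left out. For all of these scalings the cause was not tested. Over all genes, 1 was called higher with size factors, quantile normalization, array weights and the added setting. Without a filter 22 were called lower, and with 1 library left out 0 to 3 were called higher and 0 to 73 lower, the 3 and 73 without Botox 1. The ratios ran, with 1 library left out, from -0.34 to -0.19 (Efnb2 to Ephb4), -0.55 to 0.0047 (Efnb1 to Ephb4), -0.038 to 0.12 (Efna1 to Epha2), 0.0092 to 0.19 (Nrp1 to Nrp2) and -0.29 to 0.20 (Efnb1 to Efnb2). By reads per coding length Bdnf ranked 5, Efna1 3, Efnb1 7, Efnb2 1, Epha2 4, Ephb4 8, Nrp2 2 and Plxnb2 6, and by spliced length Bdnf 7, Efnb1 8, Ephb4 6, Nrp2 1 and Plxnb2 5, because the length in the divisor differs.

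The fit with the replicate number as a block leaves out the information of Botox 4, which has no partner. It called 0 genes higher and 0 lower, gave -0.52 for Efnb1, -0.41 for Efnb2 and -0.31 for Nrp2, and turned the ratio of Efna1 to Epha2 to -0.0026. It changed no call. In the labels used here, same-numbered samples share only a number.

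Nrp1 rested on 82 to 259 estimated reads and Efnb1 on 194 to 575, which limits their precision. The 95% intervals are for the difference of the group means, not for single libraries. They use limma's standard error, which draws on the other fitted genes as well, and are not adjusted over genes.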
